A study of Mus musculus with 2 samples.

Results

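The regions described here are ELAVL2 RIP peaks that lie in the middle of long genes in newborn mouse ovary. A peak was taken where it overlapped exactly 1 gene in the authors' deposited gene table, that gene spanned more than 100 kb on an autosome, and the peak's summit fell between 10% and 90% of the gene body counted from its 5′ end. The rule found 2854 such mid-body peaks in 961 genes, 10.1% of the 28332 peaks called. The genes ran from 100.2 kb (Abi1) to 4435 kb, with a median of 192 kb.

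The series compared RNA that came down with an antibody against ELAVL2 (RNA immunoprecipitation, RIP) with input RNA, taken as 5% of the cleared lysate, from postnatal day 0 (P0) ovaries. The labels name no strain or genotype for either sample; both came from a lysate of 100 pooled ovaries, and the RNA was amplified before library preparation. With 1 RIP sample, 1 input sample and no control pulldown analysed here, RNA bound to ELAVL2 and RNA retained in another way cannot be told apart. Of 172711531 aligned RIP tags 13787676 were kept after removal of repeats at a position, and of 210270620 input tags 19479946 were kept. The whole ovary holds oocytes, pregranulosa cells, stroma and vessels, and fewer cells of a type and less RNA per cell cannot be told apart in it.

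ELAVL2 is one of the ELAVL (Hu) proteins, which bind U-rich and AU-rich stretches of RNA through RNA recognition motifs. In the cytoplasm they are known for stabilising and translating messenger RNAs through sites near the 3′ end, and in the nucleus they bind introns and take part in choosing exons and polyadenylation sites. The middle of a gene above 100 kb is mostly intron, but it also holds internal exons and, in some genes, early ends of shorter transcripts. Exon annotation was not used here, so the summits were not assigned to exons or introns.

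Sequence could be read for 3 mid-body peaks that fell wholly inside RefSeq promoter windows (GRCm38.p6, 250 bases before to 50 after a transcript start), and they are shown because letters of the enriched region bear on an RNA-binding protein. They are printed on the strand of the host gene, with matches in capitals to the run TTTTT, to the AU-rich pentamer ATTTA and to the longer motif TTTATTT. The called peaks carry no strand, so the strand of the RNA was not measured.
Hmga2, chr10:120461795-120461885, minus strand: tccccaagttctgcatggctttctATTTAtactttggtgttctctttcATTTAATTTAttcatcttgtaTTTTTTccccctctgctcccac
Lmo7, chr14:101840518-101840575, plus strand: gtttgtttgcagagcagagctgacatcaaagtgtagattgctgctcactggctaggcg
Ssbp3, chr4:107027256-107027305, plus strand: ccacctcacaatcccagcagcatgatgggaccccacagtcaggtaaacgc

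These 3 regions differed in their letters and in their values. The Hmga2 peak lay at 12.7% of the gene for an architectural chromatin protein that is a classic let-7 target. It had 16 RIP tags at the summit against an input level of 1.42 and a fold enrichment of 7.04, and 48.4% of its 91 bases were T, with 3 matches to ATTTA and 2 overlapping matches to TTTTT in a run of T. At the same offset and length, ATTTA occurred on either strand in 12.2% and TTTTT in 15.8% of 32851 RefSeq promoter windows. The median T share of these windows was 22.0%. They are promoter sequence, and sequence from the middle of long genes was not compared. The Lmo7 peak lay at 54.0% of the gene, 11 tags against 0.460 (fold 8.22), and the Ssbp3 peak at 83.9%, 19 tags against 4.95 (fold 3.36). Their T shares were 27.6% and 12%, and neither held any of these motifs on either strand; Hmga2 had no TTTATTT. At their offsets and lengths ATTTA occurred in 7.80% and 6.36% of windows, TTTTT in 10.3% and 8.65%, and TTTATTT in 1.64% and 1.43%. The largest fold of the 3 was thus in a region without these letters. The 3 were set by where RefSeq places transcript starts (of Gm51785, Lmo7 and Gm12786) and do not describe the other mid-body peaks.

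The first question was how strongly the mid-body regions were enriched. The RIP value of a peak is its pileup, which counts the RIP tags that cover the summit, and the input value is the scaled local level that the peak caller set against it. Over the mid-body peaks the pileup ran from 4 through a median of 13 to 86, and the input level from 0.369 through a median of 1.42 to 45.3. The fold enrichment, which is the authors' ratio with a pseudocount of 1 on both sides, ran from 1.68 to 15.02 with a median of 4.68 (quartiles 3.51 and 5.85). No test across peaks is given, since they all come from 1 comparison of 1 RIP with 1 input sample.

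A fold of at least 5 was reached by 1235 of the 2854 peaks, 43.3% (exact 95% interval 41.4 to 45.1, which covers counting of peaks only), against 26.1% of all peaks in the series. They lay in 622 genes. A −log10 q of at least 10 was reached by 176 peaks in 133 genes, or 6.17% (5.31 to 7.11), against 5.44% of all peaks. The peaks of high fold were mostly low in tags: their median pileup was 10 and their median input level 0.708, which is the worth of 1 input tag. At a pileup of at least 20 there were 897 mid-body peaks, 31.4% of them against 58.3% of all peaks, and 136 of those (15.2%) had a fold of at least 5, against 7.43% of all peaks at that pileup.

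The largest folds at a pileup of at least 20 belonged to genes of varied function. Gmds, which makes the first step of GDP-fucose synthesis (chromosome 13, 31819579 to 32338712), had 22 RIP tags against an input level of 0.531 at 32157576 to 32157746, 34.9% along the gene, a fold of 15.02. Its 10 other mid-body peaks ran from 7 to 34 tags, and the 3 with 31 or 34 tags had input levels of 13.4 to 16.3 and folds of 2.03 to 2.42. In Gmds the tallest RIP signals were thus not those with the highest fold. Anks1b, a scaffold protein of synapses, had 21 tags against 0.495 at 90439879 to 90440020 on chromosome 10 (fold 14.7). Its peaks fell in 4 groups, one of 6 peaks between 18.6% and 18.7% of the gene and one of 4 at 51.5% to 51.6%.

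Rnf180, a membrane-anchored ubiquitin ligase, reached a fold of 12.9 (22 tags against 0.779). Disp1, which releases lipid-bearing Hedgehog proteins from cells, and Epb41l5, a FERM-domain protein of the cell cortex, both reached 12.3 with 20 tags against 0.708. Pcdh15, a protocadherin known from hair cells, reached 11.8 (22 against 0.956), the receptor phosphatase gene Ptprd 10.8 (25 against 1.42), and Lrrc28 and the exchange factor Farp2 10.3 each (24 against 1.42). Fryl followed with 10.2 (31 against 2.12). Every one of these 10 peaks had an input level at or below 2.12, or 3 scaled input tags.

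By −log10 q the order was led by a different gene. Patj, a polarity scaffold of tight junctions (named Inadl in the authors' table), had 44 tags against 4.25 at 98497452 to 98497620 on chromosome 4, with a fold of 8.58 and the largest −log10 q of the mid-body peaks, 22.6. That peak was the first of 8 within 2392 bp, whose folds ran from 4.17 to 8.58. Gmds (22.1), Anks1b (21.2), Fryl (19.4), Rnf180 (18.9), the predicted gene Gm7247 (17.7), Pcdh15 and Ptprd (17.3 each) and Tmem135 (17.2, from 32 tags against 2.83) followed. Epb41l5 was the last of the 10 at 17.2, tied with Disp1. The largest mid-body −log10 q was below the largest of all peaks, 31.1.

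The second question was how the middle of a long gene differs from its end. Of 5606 peaks in exactly 1 autosomal gene above 100 kb, 2426 (43.3%, 42.0 to 44.6) had their summit in the last 10% and 326 (5.82%, 5.22 to 6.46) in the first. Each step of 10% from 10% to 90% held between 290 and 423 peaks, 10.2% to 14.8% of the mid-body peaks, so the middle was filled almost evenly with a small excess toward the 3′ side. The share of peaks at a fold of at least 5 was 49.5% (44.2 to 54.7) between 10% and 20% of the gene, 32.9% (28.4 to 37.6) between 80% and 90%, and 16.5% (15.03 to 18.03) in the last 10%. The median input level was 1.42 in the first of these classes, 2.83 in the second and 8.49 in the last.

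**Figure D1:**
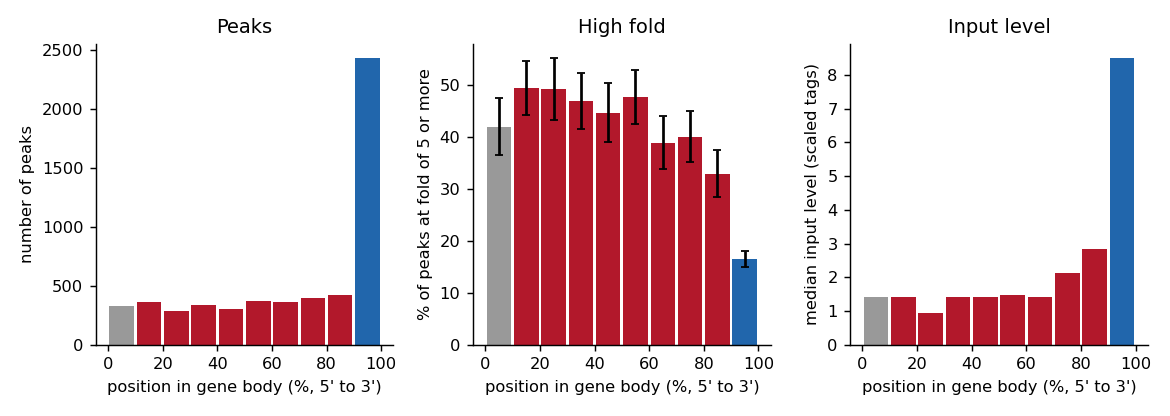
Number of peaks, percent of peaks at a fold of at least 5 (bars with exact 95% intervals for counting) and median input level (scaled tags) by 10% steps along the gene body, for 5606 peaks in exactly 1 autosomal gene above 100 kb. Red bars are the mid-body steps with 290 to 423 peaks each, grey is the first 10% with 326 and blue the last 10% with 2426.

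Peaks of the last 10% had a median fold of 3.17 (3.08 to 3.23), a median pileup of 29 and a median input level of 8.49. Mid-body peaks of shorter genes, of up to 100 kb, numbered 6046 in 2416 genes and had a median fold of 3.43 (3.37 to 3.49), a median pileup of 25 and a median input level of 6.37. The mid-body peaks of long genes stood above both in fold (4.68, 4.55 to 4.68) and below both in RIP tags and input. Peaks in the first 10% of long genes were like the mid-body ones, with a median fold of 4.68 and 13 tags. The change with gene length was gradual and not a step at 100 kb: mid-body peaks had a median fold of 4.14 in genes of 80 to 100 kb (628 peaks) and 4.09 in genes of 100 to 120 kb (505 peaks). Just outside the rule by length were Tut4 (99995 bp) and Vmp1 (99971 bp), with folds of 4.88 and 5.85 from 7 tags each. Just inside were Abi1 (100168 bp), with a fold of 2.25 from 22 tags, and Snx13 (100280 bp), with 3 peaks of 4.80 to 8.03. By position, the 79 peaks at 88% to 90% had a median fold of 4.22 and the 113 at 90% to 92% of 3.602.

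When peaks were set side by side at like input, the folds of mid-body and other peaks lay close together. At the genome-wide background, the lowest input level the caller allows (0.369), the median fold was 5.85 from a median of 7 tags in mid-body peaks of long genes, in their last 10% and in mid-body peaks of shorter genes. At an input level of 2 to 5 the medians were 4.19, 4.20 and 4.29. At 5 to 10 they were 3.29, 3.27 and 3.26, and above 10 they were 2.41, 2.41 and 2.35. What differed was the share of peaks in each class. Of the mid-body peaks of long genes 452 (15.8%, 14.5 to 17.2) sat at the genome-wide background, against 7.39% of all peaks, 2.31% of those in the last 10% and 4.93% of those in shorter genes. An input level of at most 1 tag was found for 1051 (36.8%, 35.1 to 38.6), against 18.7% of all peaks. Peaks in the first 10% of long genes were like the mid-body ones here too. Of them 14.1% sat at the background and 34.0% at 1 tag or less. At the other end, 12.5% of mid-body peaks of long genes and 42.6% of peaks in the last 10% had an input level above 10. The caller's threshold acts differently over these classes: the lowest fold among mid-body peaks was 3.65 at the background and 1.68 above an input level of 10. The largest possible fold also falls as the input level rises, because a pileup could not exceed 100.

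**Figure D2:**
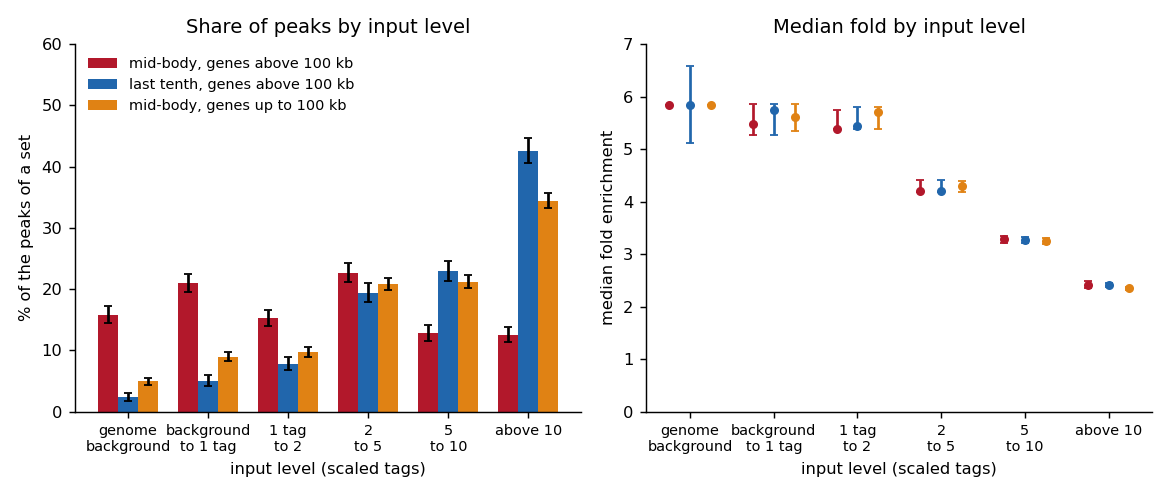
Percent of the peaks of each set by input level (left, scaled tags, exact 95% intervals for counting) and median fold enrichment within each level (right, intervals from order statistics). At the background level lie 15.8% of mid-body peaks of long genes and 2.31% of those in the final 10% of long genes, with the same median fold of 5.85.

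Within genes the contrast, here not matched on input level, had the same direction. Of the 961 genes, 374 (38.9%) also had a peak in the last 10%. The median mid-body fold was above the median fold of the last 10% in 298 of the 374, equal in 3 and below in 73. The median pileup ran the other way, lower in the mid-body in 320 genes and higher in 50, and so did the input level, lower in 318 and higher in 50. With at least 3 peaks on each side, 93 of 103 genes had the higher median fold in the mid-body. In 530 genes (55.2%) neither the first nor the last 10% held a peak, counting peaks that overlap exactly 1 gene. Mid-body peaks of genes without a peak in the last 10% had a median fold of 4.76 and of genes with one 4.48. Genes are not replicates, and no test is given for these counts.

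The third question was how the peaks were spread over and within genes. A single mid-body peak was found in 442 genes, 2 to 4 in 345 and 5 or more in 174, which together held 1490 peaks (52.2%). Neighbouring mid-body peaks of a gene lay a median of 912 bp apart (quartiles 250 and 13097 bp), and 1440 of the 2854 (50.5%) had another within 1000 bp. Joining such neighbours gave 1882 sites, 204 of them with 3 or more peaks. In the last 10% the median distance was 353 bp and 78.0% of distances were at most 1000 bp, against 51.3% in the mid-body. The last 10% is a shorter window than the mid-body, which bounds the distances it can hold. These values therefore do not compare how tightly peaks gather. Peaks with a near neighbour had a median fold of 4.75 and 14 tags, and solitary ones 4.48 and 12 tags.

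The genes with most mid-body peaks differed in how these gathered into sites, a site being peaks within 1000 bp of each other. Rock1, a kinase of the actin cytoskeleton, had 19 peaks at 18 sites over 71.1 kb. Cdkal1, which modifies a transfer RNA, had 21 at 13 sites over 455 kb, and Atp11b, a phospholipid flippase, 20 at 13 sites over 51.001 kb. Strbp, an RNA-binding protein of spermatids, had 20 at 11 sites, Tdrd3, a Tudor-domain partner of topoisomerase 3 beta, 21 at 10, and Celf2, a splicing and translation regulator, 18 at 9. Syt1, the calcium sensor of synaptic vesicles, had 20 at 8 sites and Camta1, a calmodulin-binding transcription factor, 16 at 5 over 24.9 kb. Farp2 had 16 peaks at 3 sites over 39.9 kb. The single sites with most peaks in genes with an approved symbol were outside the naming rule and chosen after their values were seen. Rims1 and Unc13b, both of synaptic vesicle release, each held 12 peaks, within 3211 and 3814 bp.

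These genes also differed in level. Tdrd3 had 9 to 57 RIP tags (median 35) against input levels of 1.03 to 27.6 (median 11.3), and 1 of its 21 peaks reached a fold of 5, at 6.84. Cdkal1 had 5 to 56 tags (median 21) against 0.369 to 20.5 (median 3.54), and 10 of its 21 peaks reached 5, with a best fold of 7.31. Syt1 had 4 to 29 tags (median 16.5) against 0.369 to 7.79, and 9 of 20 reached 5. Celf2 had 5 to 30 tags (median 9) against 0.369 to 9.20, and 10 of 18 reached 5. Tdrd3 thus had the highest median pileup and input level of these 4 genes and the lowest median fold, 3.10 against 4.41, 4.62 and 5.17.

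**Figure D3:**
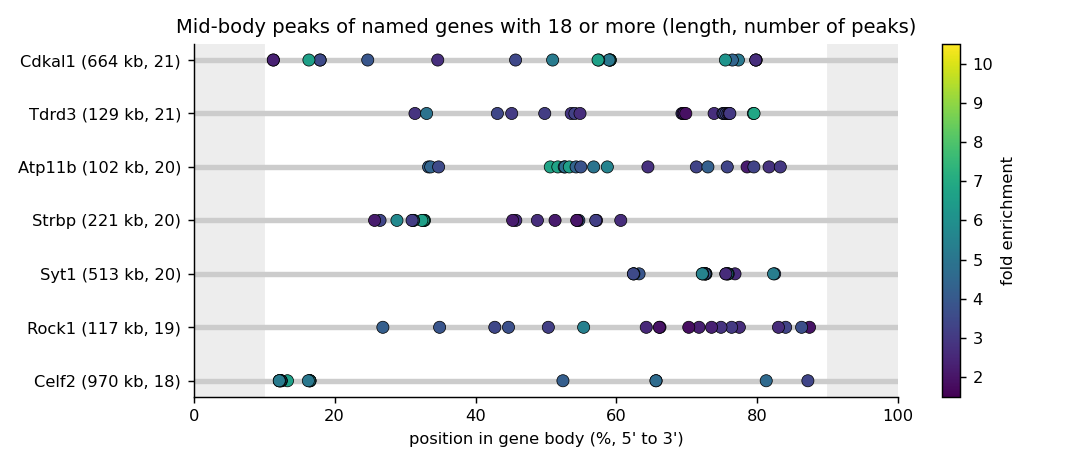
Positions of the mid-body peaks along the gene body (percent, 5′ to 3′) in the named genes with 18 or more of them, coloured by fold enrichment, with the length and number of peaks beside each name. Grey zones are the first and last 10%, outside the rule, and the highest fold is that of a Syt1 peak at 62.5% of the gene (7.61), overlaid here by its neighbours.

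The outline of a gene decides whether a peak is mid-body, so the same peaks were placed in RefSeq gene bodies. Symbols of 938 of the 961 genes, with 2791 peaks, matched RefSeq (GRCm38.p6, the assembly of mm10), 901 as protein-coding and 33 as long noncoding RNA genes. Of the matched peaks, 2581 (92.5%) were mid-body in a RefSeq gene above 100 kb as well, 102 fell in the RefSeq last 10%, 27 in its first 10%, 30 past its 3′ end, 21 before its 5′ end and 30 in the mid-body of a shorter one. The 102 had a median fold of 3.40 and 28 tags, against 4.68 and 13 for the 2581. All 16 Camta1 peaks belonged to the RefSeq last 10% (body of 802 kb against 945 kb in the authors' table), 4 of the 20 of Strbp did too, and 13 of the 18 of Celf2 lay in the RefSeq first 10%. The 5 peaks of Fgfr2, named by its 2961 kb body in the authors' table, lay before the 5′ end of its 104 kb RefSeq body, so their fold of up to 11.0 is not a value of that RefSeq gene.

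RefSeq lists 2609 autosomal genes above 100 kb, of which 895 (34.3%) held at least 1 mid-body peak. Among protein-coding ones the count was 871 of 2312 (37.7%). The share rose with length, from 31.8% (29.3 to 34.3) of genes of 100 to 200 kb through 39.2% and 55.3% to 67.7% (57.3 to 77.1) of the 93 genes above 800 kb. Peaks per megabase of gene fell over the same classes, from 6.74 to 2.43. The median fold was 4.34 in the shortest class and 5.11 in the longest, with 15 and 11 tags, and the percent of peaks at an input level of at most 1 tag was 28.0% and 50%. The longest bodies apart from Fgfr2 with a named gene were those of Ptprd (6 peaks), the axonal adhesion genes Cntnap2 (7 peaks, best fold 7.03) and Lsamp (8, 8.78), and the lipoprotein receptor gene Lrp1b (4, 6.44).

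Gene lists, chosen with earlier results of these data known, were then read against these shares, always over members above 100 kb in RefSeq. In the list of cytoskeleton, motor and membrane traffic genes 28 of 46 held a mid-body peak (60.9%, 45.4 to 74.9), against 37.7% of all protein-coding genes. Of the 28, 21 reached a fold of 5, against 588 of 895 (65.7%) RefSeq genes with a peak, noncoding ones included. The same count was 24 of 27 for cell adhesion genes and 12 of 21 for kinase and GTPase signalling. The cytoskeleton list's median length was 442 kb, and 55.3% of all protein-coding genes of 400 to 800 kb held a peak. That list also holds Gmds, Fhit, Wwox, Macrod2 and Immp2l, which are not known as genes of these functions and all had a peak. Without these 5, taken out after their values were seen, 23 of 41 were left (56.1%, 39.7 to 71.5). Of the others, the synaptic scaffold gene Anks1b had the highest fold, and Kif5c, a kinesin heavy chain, had a fold of 11.7 from 15 tags at the background level. Among cell adhesion and synapse organisers the count was 27 of 52 (51.9%, 37.6 to 66.0, an interval that holds 37.7%), with Pcdh15, Ptprd and the ephrin receptor Epha6 (fold 9.36 from 12 tags) on top. That list had a median length of 1041 kb, and its share lay below the 67.7% (57.3 to 77.1) of all genes above 800 kb, with overlapping intervals. Ion channels and neurotransmitter receptors held a peak in 17 of 46 (37.0%, 23.2 to 52.5), against 37.7% of all protein-coding genes. That list had a median length of 433 kb, and genes of 400 to 800 kb held a peak in 55.3% (48.9 to 61.7). The interval of that class overlaps the interval of the list, and the list was not matched on length. Its largest fold was that of the exchanger Slc24a2 (8.04). The NMDA receptor gene Grin2a (7.31 from 9 tags) and the potassium channel partner Kcnip4 (7.04 from 16 tags) followed. The nicotinic receptor gene Chrna7, described at the end, was not in the list.

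Among transcription and chromatin regulators 25 of 48 held a peak (52.1%, 37.2 to 66.7). That interval holds the 37.7% of all protein-coding genes, and at the list's median length of 317 kb, in the class of 200 to 400 kb, the share of all was 39.2%. Counting only peaks that are mid-body in RefSeq too, which leaves Camta1 without one, 24 of 48 remained (50%). Counted in that way, the share of all protein-coding genes was 863 of 2312 (37.3%). Mllt10, a partner of the histone methylase DOT1L, had 15 peaks with a best fold of 9.37, Auts2, a gene of neural development, 11 with 8.78 and the chromatin remodeller Smarca2 2 with 7.45. Of genes of kinase, phosphatase and GTPase signalling 21 of 48 held a peak (43.8%, 29.5 to 58.8). The shares beside it were the same 37.7% of all and 39.2% at the list's median length of 352 kb. Counting peaks that are mid-body in RefSeq too, which leaves Fgfr2 without one, it was 20 of 48 (41.7%), against 37.3% of all. The cyclic AMP phosphodiesterase gene Pde4d had a best fold of 8.64, but that peak and 3 others of its 7 lie in the first 10% of its RefSeq body. The kinase gene Braf had a best fold of 6.69. Braf had 2 mid-body peaks beside 24 in its last 10%.

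RNA-binding and translational regulators held a mid-body peak in 18 of 33 (54.5%, 36.4 to 71.9). The interval holds the 37.7% of all protein-coding genes. It lies above the 31.8% (29.3 to 34.3) of the class that holds the list's median length of 188 kb, but the list was not matched on length. The splicing regulator Rbfox2 had 4 with a best fold of 8.78 (14 tags against 0.708), the deadenylase subunit Pan3 1 with 8.77 (11 against 0.369) and the exonuclease Xrn1 1 with 8.15 (13 against 0.718). Pan3 had 10 further peaks in its last 10% and Rbfox2 5. Elavl2 itself, with 6 mid-body peaks, had 15 tags against 1.42 at its best (fold 6.62) and 2.76 at a pileup of at least 20. Few meiosis and germ cell genes are that long: 9 of 45, of which 7 held a mid-body peak (77.8%, 39.99 to 97.2). The share was 37.7% of all and 31.8% in the class of their median length of 151 kb. Both lie below that interval, which rests on 9 genes. Tdrd3, the topoisomerase partner named above, was among the 7 and held 21 of the list's 40 peaks. The share without it was not computed. Tex14, of the bridges between germ cells, had 1 peak (12 tags against 0.708, fold 7.61). The Fanconi gene Fancc had 4 (best fold 7.14), and Rad51b, of homologous recombination, 8 within 2.60 kb (best 7.03). Sycp1, of the synaptonemal complex, had 47 tags against 26.2 and a fold of 1.77, near the lowest of all mid-body peaks.

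Markers of the somatic cells of the ovary gave 2 of 12 genes above 100 kb with a mid-body peak (16.7%, 2.09 to 48.4). These were Fshr, the FSH receptor of granulosa cells (9 and 7 tags, both at the background level of 0.369, folds 7.31 and 5.85), and Tek, an endothelial receptor (17 tags against 3.54, fold 3.97). The long markers without one were Lgr5, Cyp19a1, Nr5a2 and Runx1 of the granulosa list, Gli2 of stroma, Flt1 and Erg of endothelium, Ptprc and Adgre1 of immune cells and Ank1 of red cells, and the epithelial list had no gene of that length. The interval of this share holds the 37.7% of all protein-coding genes, so a difference was not detectable with 12 genes.

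**Figure D4:**
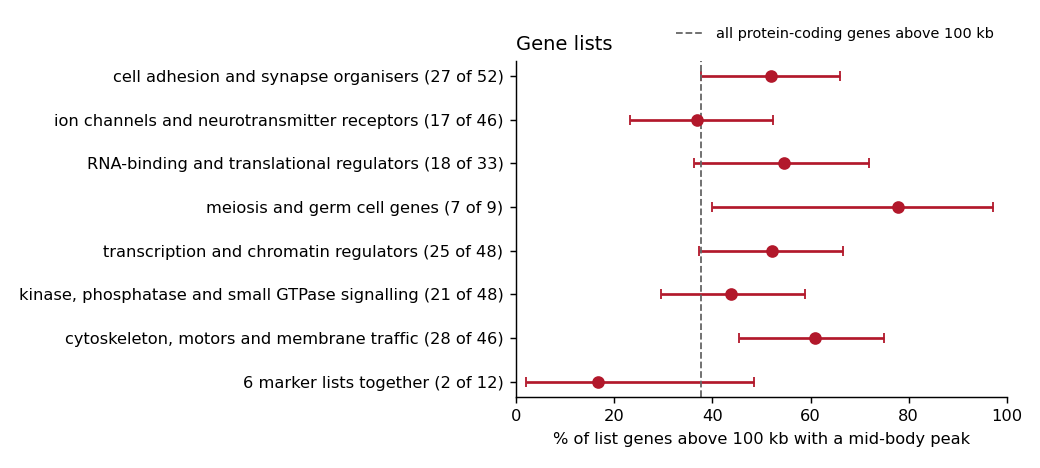
Percent of list genes above 100 kb in RefSeq that held at least 1 mid-body peak, with exact 95% intervals for counting and the number of genes beside each name. The dashed line is the share of all protein-coding autosomal genes above 100 kb (37.7%); the lists run from 16.7% for the 6 marker lists together to 77.8% for meiosis genes, and they were not matched on gene length.

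Short reads can match several copies of a sequence, so peaks were searched for twins, that is, another peak with the same length, pileup, fold and offset of the summit. A twin was found for 346 mid-body peaks (12.1%, 10.9 to 13.4), against 7.8% of all peaks. Peaks of few tags near the minimum length of 50 bp take few values, so such a match can also arise without repeated sequence. Mid-body peaks of long genes had fewer tags than all peaks (median pileup 13 against 24). At a pileup of at least 20 the share was 23 of 897 (2.56%, 1.63 to 3.82), against 2.07% of all peaks at that pileup. The part of repeated sequence in the folds was not tested.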

How the data were processed

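RNA from 1 ELAVL2 RIP and 1 input sample gave single reads, each 36 bases long. TopHat2 2.0.8b and MACS2 2.1.0.20140616 stand beside FastQC 0.11.2, CASAVA 1.8.2 and the build mm10 in the submitters' processing notes. Per the file headers, 3 pooled RIP lanes were compared with 3 pooled input lanes, at a q cutoff of 0.05, keeping 1 tag per position and strand and extending tags to 50 bp, so a pileup could not exceed 100. The deposited pileup is a signal, the deposited fold enrichment a ratio with a pseudocount of 1, and the deposited −log10 p and q are the authors' own values per peak. The caller takes no account of splicing or strand.

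From these, the input level was computed as (pileup + 1) / fold − 1. Recomputing the Poisson −log10 p from it gave the deposited value to within 4.33e-05. It is the larger of local and genome-wide backgrounds, not a tag count. The authors' deposited gene table held 85730 rows, and dropping 42176 repeats left 43554 pairs. The sources used here do not give the tool behind that table. Shares have exact Clopper-Pearson 95% intervals and medians order-statistic ones, checked on simulated data; they cover counting only. Member regions, gene lists and thresholds were chosen with earlier results of these data known. Genes were named by a rule: the 10 with most peaks, the 10 largest folds at a pileup of at least 20, the 10 largest −log10 q, the 5 longest, the 3 best of each list and the genes nearest 100 kb, with a RefSeq symbol; Gm20388, longer than all, and other genes without one were not. One further gene that the rule names is not reported here. The list counts on RefSeq bodies were added after the data were seen. A genome sequence was not used here, so the planned comparison of motifs between peaks was replaced by the regions inside RefSeq promoter windows. Scripts ran in Python 3.11.15 with pandas 2.3.3, matplotlib 3.10.9, scipy 1.17.1 and numpy 2.4.6.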

Additional observations from a re-analysis of the deposited data

Results flagged for a closer look

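The same rule applied to chromosome X, which the description above leaves out, found 142 mid-body peaks in 52 genes above 100 kb. Their median fold was 4.73 and their median pileup 13.5, and 35.9% had an input level of at most 1 tag, against 36.8% on the autosomes. They stand here because they are signal in data outside the comparisons made. No group had enough samples to look for a sample apart from the others.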

How the results depend on the processing

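Of 68 values under 12 alternatives, 30 stayed within the interval or 1.5-fold of the reported count and 38 did not. With a minimum length of 50 kb there were 4692 peaks in 1615 genes (median fold 4.41, pileup 15, 38.3% at a fold of 5, 30.6% at 1 input tag or less). With 200 kb there were 1497 in 464 (4.97, 12, 49.0%, 43.5%). With a pileup of at least 20 there were 897 in 334 (3.202, 30, 15.2%, 0.446%). From peaks paired with exactly 1 gene, 695 in 292 were left (4.70, 12, 45.8%, 43.3%). A −log10 q of at least 3 moved the median fold to 5.27, the pileup to 14 and the share at a fold of 5 to 58.7%. Keeping the peak of highest fold in each gene (961) gave 5.82, 11, 64.7% and 54.5%, and in each group of neighbours (1882) 4.80, 47.7% and 42.1%; both select on fold, so a higher fold follows from their construction. Without the pseudocount the median fold was 7.56 and 66.7% reached 5. The windows of 5% to 95% and 20% to 80%, RefSeq bodies and leaving out the 10 genes with most peaks moved none of the 6 values. The mid-body median fold was above that of the last 10% as reported and in the 5 other settings compared. Of these, 1 peak per gene selects on fold on both sides. A −log10 q of at least 3 selects on a value that comes from the same pileup and input level as the fold. The gap was smallest at a pileup of at least 20 (3.202 against 2.75, input 9.20 against 12.03). No paired analysis was possible because each arm had 1 sample, and for the same reason no sample could be left out. Depth limits the low end: at the background level a peak rests on as few as 4 tags.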

Other observations

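Some mid-body regions lay in a second RefSeq gene that the authors' table does not pair with them. Of the 2791 matched peaks, 174 (6.23%) had their summit inside another RefSeq gene: 87 in a long noncoding RNA gene, 63 in a pseudogene and 24 in a protein-coding gene. Their median fold was 3.74 with 16 tags, and for those in pseudogenes 2.59. The examples here were chosen after their values were seen. The Farp2 peak with a fold of 10.3 was also inside the noncoding gene Gm41920, and 2 peaks of Lsamp with a fold of 8.78 each were inside Gm46551. Snrpn, an imprinted gene of the Prader-Willi region, had a peak with a fold of 10.1 (13 tags) that was also inside Snhg14, the host of snoRNAs in that region. Ptprq had a peak with a fold of 9.95 (16 tags) that was also inside Gm36177. These regions were not assigned to one of the 2 genes: the peaks carry no strand, and overlapping genes can also share a strand.

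Chrna7, a nicotinic receptor subunit with 7 mid-body peaks, had a median fold of 9.50 and a best fold of 11.7, from a peak of 15 tags at the background level. The mitochondrial ribosomal gene Mrps28 had 2 peaks of 78 and 77 tags, among the tallest. Their input levels were 41.1 and 45.3 and their folds 1.88 and 1.68. With a pileup limited to 100, folds like those of Chrna7 were out of reach at these input levels. The folds of Chrna7 and Mrps28 therefore do not compare the enrichment of these genes.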
